A study of Mus musculus with 6 samples.

Results

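The blood vascular endothelial nuclei of mouse white adipose tissue were the nuclei that carried transcripts of genes that mark the lining of blood vessels and few of a chosen set of genes that mark lymphatic vessels, immune cells, epithelium, mesothelium and adipocytes. They were not free of transcripts of these other cells. A nucleus was counted as one when at least 4 of its UMIs (unique molecular identifiers, each standing for 1 captured transcript) came from at least 2 of the 6 genes Ptprb, Flt1, Cdh5, Kdr, Emcn and Pecam1. It also had to hold at most 1 UMI in all of Mmrn1, Prox1, Flt4 and Reln, and at most 1 in all of Ptprc, Skap1, Epcam, Upk3b and Plin1. After nuclei with at most 500 genes, at most 1000 UMIs or at least 15% mitochondrial UMIs had been set aside, 599 of the remaining 27074 (2.21%) met this rule. The 6 single-nucleus libraries came from female C57BL/6J mice and fell into 3 groups of 2: subcutaneous adipose tissue (SAT, the inguinal depot) at 2 months, SAT at 24 months, and visceral adipose tissue (VAT, the gonadal depot) at 24 months. The labels name no transgene and no treatment. The labels give 24 months for the older mice and the design text and the study's methods give 26. The study's text describes 2 mice per age, so the 24-month SAT and VAT libraries may share mice, and the labels name neither the mouse behind each library nor any batch that differs between them.

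Endothelial cells line every vessel, and those of white fat pass fatty acids from the blood to adipocytes. Lipoprotein lipase is anchored on the capillary wall by GPIHBP1 and releases fatty acids from triglyceride-rich particles, which CD36 and the fatty acid binding proteins FABP4 and FABP5 then carry inwards, while caveolae, small invaginations of the membrane, are abundant in these cells. Arterial, capillary and venous endothelium are told apart by the genes they transcribe, and the high endothelial venules of lymph nodes form a separate kind that displays GlyCAM-1 and lets lymphocytes enter. Pericytes, which wrap capillaries, are not endothelial but lie against them.

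The libraries held 6158 to 11341 barcodes and 8061862 to 16226690 UMIs, and at most 0.769% of barcodes were shared by any pair of libraries. The endothelial nuclei numbered 22 and 14 in SAT at 2 months, 69 and 330 in SAT at 24 months and 94 and 70 in VAT, so replicate 2 of SAT at 24 months alone held 55.1% of them. Their median depth was 1489 to 1800.5 UMIs per nucleus (1380 to 1883 in the other nuclei), and their summed UMIs were 38912 and 23795 in SAT at 2 months against 135537 to 709111 in the older libraries. The younger SAT profiles were therefore the least precise. The labels give the cell type of every library as adipocytes, and VAT replicate 2 stood apart in its transcripts of ovary and oviduct: Cyp11a1, a steroid synthesis enzyme, was at 1166 CPM (counts per 1000000 UMIs) in its other nuclei and at 885 CPM in its endothelial nuclei, and was at 0 in the endothelial nuclei of the other 5 libraries.

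The 6 genes of the rule chose these nuclei, and their levels are a description. Ptprb, a phosphatase that dampens TIE2 and VE-cadherin signalling, was at 1722 and 841 CPM in the younger SAT libraries, 2297 and 1319 in the older ones and 1719 and 922 in VAT, and at 8.06 to 59 CPM in the other nuclei. Kdr, the main VEGF receptor, was at 617 and 84.1 CPM in the younger SAT libraries, 352 and 715 in the older ones and 431 and 295 in VAT. Pecam1, which is also transcribed in some leukocytes, was at 1902 and 1555 CPM in the younger SAT libraries, 2096 and 1051 in the older ones and 1995 and 989 in VAT. Of the 599 nuclei, 516 had UMIs from at least 3 of the 6 genes. The rule's edge was populated on both sides: 62 nuclei had exactly 4 UMIs of these genes and 61 nuclei that met the other criteria had 3. A further 108 nuclei were left out by the lymphatic genes and 241 by the genes of other cells, 158 of the latter in replicate 2 of SAT at 24 months.

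Genes outside the rule marked the same cells. The 15 genes with the highest ratio of endothelial to other nuclei, averaged over libraries, were Shank3, Cyyr1, Adgrf5, Aqp1, Adgrl4, Plvap, Eng, Mecom, Rasip1, Ushbp1, Hspa12b, Sox18, Tie1, Cdh13 and Ly6c1, and each was higher in the endothelial nuclei of all 6 libraries. The mean log2 ratio ran from 3.83 for Shank3 to 2.90 for Ly6c1. Shank3, a scaffold protein best known from synapses (chr15:89383826-89444464, GRCm39), was at 1491 and 798 CPM in the younger SAT libraries, 1249 and 678 in the older ones and 905 and 1313 in VAT, and at 13.9 to 39 CPM in the other nuclei. Eng, a co-receptor of BMP signalling (chr2:32535543-32574661), varied little, at 848 and 546 CPM in the younger SAT libraries, 725 and 616 in the older ones and 539 and 494 in VAT. Tie1, an endothelial receptor kinase (chr4:118328385-118347261), was at 565 and 378 CPM in the younger SAT libraries, 352 and 276 in the older ones and 305 and 619.8 in VAT. The endothelial transcription factor Sox18 (chr2:181311629-181313438) was at 591 and 462 CPM in the younger SAT libraries, 402 and 518 in the older ones and 455 and 221 in VAT. All 4 genes stood above the other nuclei of the same library in each of the 6. The members were chosen by genes of the same cells, so this is no test.

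**Figure D1:**
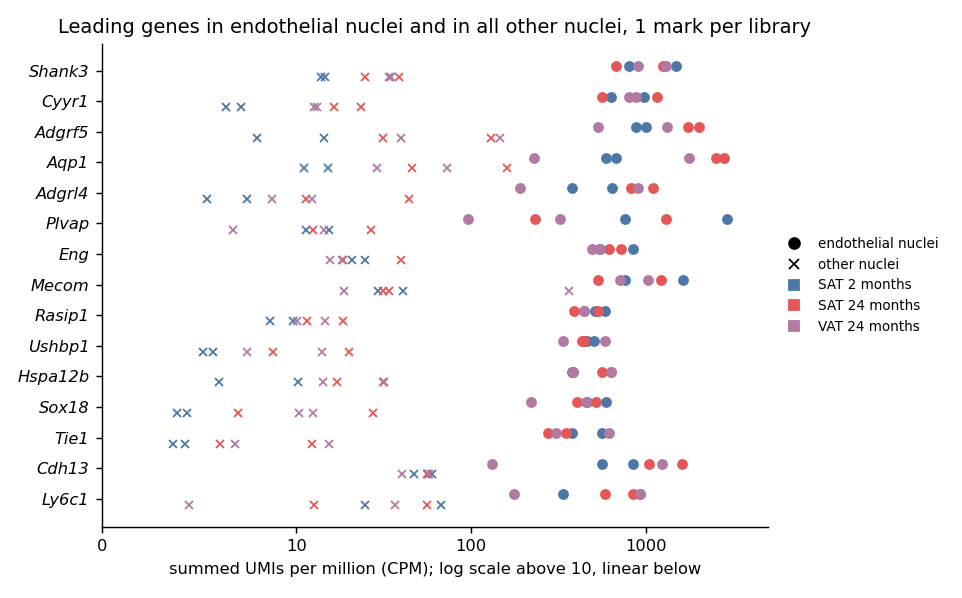
Level of the 15 leading genes in the summed endothelial nuclei (circles) and in all other nuclei (crosses) of each of 6 libraries, in CPM on an axis that is logarithmic above 10 and linear below; colours are the 3 groups. Every circle of a gene lies to the right of the cross of its own library, and Aqp1, Adgrl4, Plvap, Cdh13 and Ly6c1 reach their lowest endothelial value in VAT replicate 2.

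The broader list of 25 pan-endothelial genes gave the same picture. Its summed level was 11462 and 7060.3 CPM in the younger SAT libraries, 13378 and 10939 in the older ones and 10968 and 9525 in VAT, against 552 to 884 CPM in the other nuclei, and 25 of 25 genes were higher on average in the endothelial nuclei, 18 of them in all 6 libraries. The 4 lymphatic genes limited by the rule summed to at most 111 CPM, compared with 2598 to 12703 CPM in the 148 nuclei chosen as lymphatic endothelium by the same genes (3 or more of their UMIs from at least 2 genes). In 5 more lymphatic genes the endothelial nuclei summed to 1748 and 168 CPM in the younger SAT libraries, 151 and 55 in the older ones and 41.9 and 944 in VAT. The 2 high values there came from single genes, Ccl21a in replicate 1 of SAT at 2 months (1593 CPM) and Piezo2 in VAT replicate 2 (834 CPM).

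The promoters of the leading genes are shown because these genes stood together above the other nuclei. Of the 15, 12 are in the RefSeq table of promoters (GRCm38.p6, 250 bases before to 50 after the start). The letters CAGGAA, the core of a site bound by ETS family factors such as ERG and FLI1, were searched on both strands (the reverse reads TTCCTG), as were TGTTTAC, a forkhead core, and AACAATG, a SOX core. CAGGAA or its reverse was in 6 of the 12 (Cyyr1, Adgrf5, Eng, Rasip1, Ushbp1 and Tie1), and in 33.4% of the 27025 genes of the table. TGTTTAC was in 0 of 12 (4.05% of all genes) and AACAATG in 0 of 12 (4.33%). Of the first 4 by rank, the match of Eng began at base 6 of the transcript, past the bases shown, and the 250 bases before the start of the other 3 follow, 5′ to 3′ on the strand of the gene, with each match in capitals. They are Cyyr1 (chr16:85550374-85550623, minus strand), Adgrf5 (chr17:43360181-43360430, plus strand) and Rasip1 (chr7:45627287-45627536, plus strand), with coordinates in GRCm38.p6.
Cyyr1: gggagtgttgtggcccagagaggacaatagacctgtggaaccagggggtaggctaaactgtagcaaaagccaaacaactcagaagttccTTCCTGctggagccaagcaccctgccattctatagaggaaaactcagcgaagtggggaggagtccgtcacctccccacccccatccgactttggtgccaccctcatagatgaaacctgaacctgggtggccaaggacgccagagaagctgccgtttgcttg
Adgrf5: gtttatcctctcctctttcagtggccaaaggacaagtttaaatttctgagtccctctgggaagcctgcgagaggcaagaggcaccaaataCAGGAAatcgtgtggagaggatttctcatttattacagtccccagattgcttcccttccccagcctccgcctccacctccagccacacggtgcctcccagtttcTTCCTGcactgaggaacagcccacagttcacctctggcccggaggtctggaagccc
Rasip1: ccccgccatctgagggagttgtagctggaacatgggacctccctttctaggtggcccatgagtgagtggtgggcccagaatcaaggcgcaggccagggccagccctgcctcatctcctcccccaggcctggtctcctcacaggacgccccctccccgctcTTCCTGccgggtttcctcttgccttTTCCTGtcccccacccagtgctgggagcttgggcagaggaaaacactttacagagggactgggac
The match of Cyyr1 began 161 bases before the start, those of Adgrf5 160 and 56 bases before it, and those of Rasip1 90 and 65 bases before it. A match describes the letters of the window and is no evidence of binding.

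The share of nuclei that were blood vascular endothelium was higher in SAT at 24 months than at 2 months, and lower in VAT than in SAT at 24 months, with 2 libraries a group. At 2 months it was 0.479% (exact Clopper-Pearson 95% interval 0.30 to 0.724, counting error only) and 0.242% (0.133 to 0.406). In SAT at 24 months it was 2.77% (2.16 to 3.49) and 7.01% (6.29 to 7.77), and in VAT 2.12% (1.72 to 2.59) and 1.38% (1.08 to 1.74). The groups did not overlap in either comparison. The SAT means were 0.361% ± 0.167 at 2 months and 4.89% ± 3.00 at 24 months (SD, n = 2 each), a difference of 4.53 points (exact permutation test, two-sided, p = 0.333, which is the smallest p that 2 against 2 libraries allow). The VAT mean was 1.75% ± 0.523 (SD, n = 2), which was 3.14 points below SAT of the same age (exact permutation test, two-sided, p = 0.333). Without replicate 2 of SAT at 24 months these differences were 2.41 points for age and -1.02 for depot, and in the depot comparison the libraries overlapped when nuclei with over 200 genes and over 500 UMIs were admitted.

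**Figure D2:**
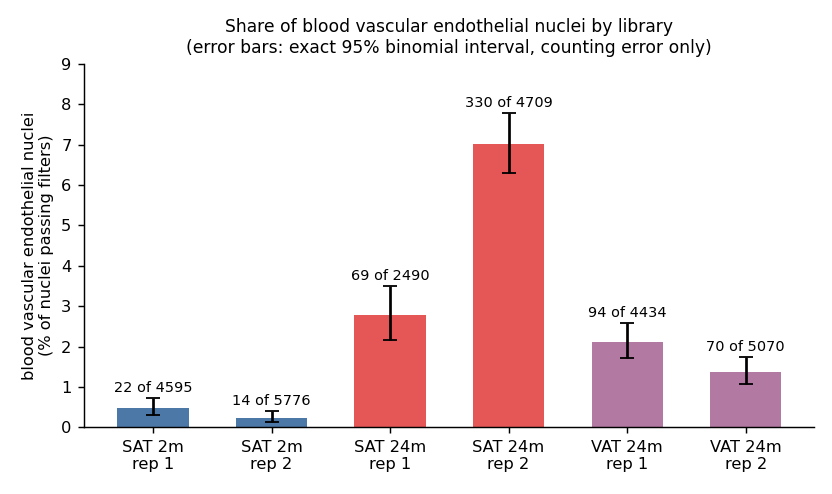
Blood vascular endothelial nuclei as a percentage of the nuclei that passed the filters, by library; bars start at 0, error bars are exact 95% binomial intervals that cover counting error only, and the counts stand above the bars. The 2 libraries of SAT at 2 months lie below 0.5%, and replicate 2 of SAT at 24 months stands above the other 5 at 7.01%.

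A share depends on the other nuclei of a library as well. Nuclei with at least 2 UMIs of the immune genes Ptprc and Skap1 and fewer than 2 of the 6 endothelial genes numbered 1859 and 2864 in SAT at 2 months, 631 and 405 in SAT at 24 months and 89 and 802 in VAT. With nuclei free of Ptprc and Skap1 UMIs as the denominator, the means were 0.989% ± 0.312 in SAT at 2 months, 6.37% ± 2.57 in SAT at 24 months and 1.99% ± 0.323 in VAT (SD, n = 2). The groups did not overlap on this denominator either.

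Within the endothelial nuclei, the capillary gene Gpihbp1 and the large-vessel gene Vwf tended to lie in different nuclei, and the libraries drew on them unequally. Gpihbp1, the capillary anchor of lipoprotein lipase, had a UMI in 3 of 22 and 3 of 14 endothelial nuclei of SAT at 2 months, 22 of 69 and 245 of 330 of SAT at 24 months and 41 of 94 and 3 of 70 of VAT. Vwf, the clotting factor carrier of larger vessels and veins, had a UMI in 5 of 22, 1 of 14, 41 of 69, 22 of 330, 18 of 94 and 22 of 70 in the same order. Replicate 2 of SAT at 24 months was thus mostly Gpihbp1-bearing. In replicate 1 Vwf was more common than Gpihbp1, but was in 28 of 69 nuclei once each was thinned to 1000 UMIs. In replicate 1, Vwf was found in 5 of 22 nuclei with Gpihbp1 and in 36 of 47 without it. In replicate 2 it was in 9 of 245 with and 13 of 85 without, and in VAT replicate 1 in 3 of 41 with and 15 of 53 without. Vwf was therefore less common beside Gpihbp1 in each of the 3 libraries with over 20 Gpihbp1-bearing nuclei, a description for which nuclei give no test. With every nucleus thinned to 1000 UMIs it was in 4 of 19 with and 24 of 50 without in replicate 1, 2 of 196 and 11 of 134 in replicate 2, and 2 of 38 and 13 of 56 in VAT replicate 1, in the same direction.

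Selp, the adhesion receptor P-selectin of venous endothelium, was found more often beside Vwf. In replicates 1 and 2 of SAT at 24 months, Selp was in 15 of the 41 nuclei with Vwf against 4 of the 28 without, and in 5 of 22 against 7 of 308. In VAT it was in 4 of 18 against 3 of 76 and in 6 of 22 against 2 of 48. After thinning to 1000 UMIs these counts were 5 of 28 against 5 of 41, 4 of 13 against 6 of 317, 1 of 15 against 3 of 79 and 4 of 18 against 0 of 52, so the share with Vwf was the higher in all 4, on few nuclei. Selp had a UMI in 3.64% to 27.5% of the endothelial nuclei of these libraries and in 0% to 1.5% of their immune nuclei. Vcam1, which binds lymphocyte integrins, was in 31.9% and 6.67% of endothelial nuclei of SAT at 24 months and 14.9% and 4.29% of VAT. In immune nuclei it was in 3.49% and 12.3%, and in 10.1% and 4.86%. Beside Vwf it was in 20 of 41 nuclei against 2 of 28 without and in 7 of 22 against 15 of 308 in SAT at 24 months. In VAT it was in 5 of 18 against 9 of 76 and in 1 of 22 against 2 of 48. After thinning these counts were 7 of 28 against 10 of 41, 4 of 13 against 9 of 317, 3 of 15 against 7 of 79 and 0 of 18 against 2 of 52. The share with Vwf stayed higher in replicate 2 of SAT and replicate 1 of VAT, on few nuclei. The part of background was not tested. Sema3g, a semaphorin of arterial endothelium, had a UMI in 8 of 22, 1 of 14, 12 of 69, 99 of 330, 37 of 94 and 6 of 70 nuclei. In replicate 1 of SAT at 24 months 11 of the 12 Sema3g nuclei held Vwf, against 30 of the 57 without Sema3g, in replicate 2 it was 9 of 99 and 13 of 231, and in VAT replicate 1 it was 7 of 37 and 11 of 57, which lay close together. After thinning the direction in replicate 1 turned, with Vwf in 3 of 10 nuclei with Sema3g and 25 of 59 without, so no relation of the pair is read from these counts. Before thinning, Gpihbp1 was in 0 of 12 nuclei with Sema3g against 22 of 57 without it in replicate 1 of SAT at 24 months, in 72 of 99 against 173 of 231 in replicate 2, and in 13 of 37 against 28 of 57 in VAT replicate 1. After thinning it was in 0 of 10 against 19 of 59, 37 of 64 against 159 of 266, and 10 of 31 against 28 of 63, and the shares in replicate 2 lay close together both times.

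The background of these shares was low for 4 of the genes. In the immune nuclei above, whose median depth was 1324 to 1616 UMIs against 1489 to 1800.5 in the endothelial nuclei, Gpihbp1 had a UMI in 0% to 3.70% of nuclei, Vwf in 0% to 3.12%, Plvap in 0.943% to 2.25% and Sema3g in 0% to 0.741%. With every nucleus thinned to 1000 UMIs, Gpihbp1 was found in 9.09% and 14.3% of the endothelial nuclei of SAT at 2 months, 27.5% and 59.4% of SAT at 24 months and 40.4% and 4.29% of VAT. Vwf after thinning was in 18.2%, 7.14%, 40.6%, 3.94%, 16% and 25.7% in the same order. The order of the libraries was the same for both genes before and after thinning. Adipoq, the adipocyte hormone adiponectin, was not low in the background: it had a UMI in 11.4% to 54.5% of endothelial nuclei and in 2.54% to 21.0% of immune nuclei.

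**Figure D3:**
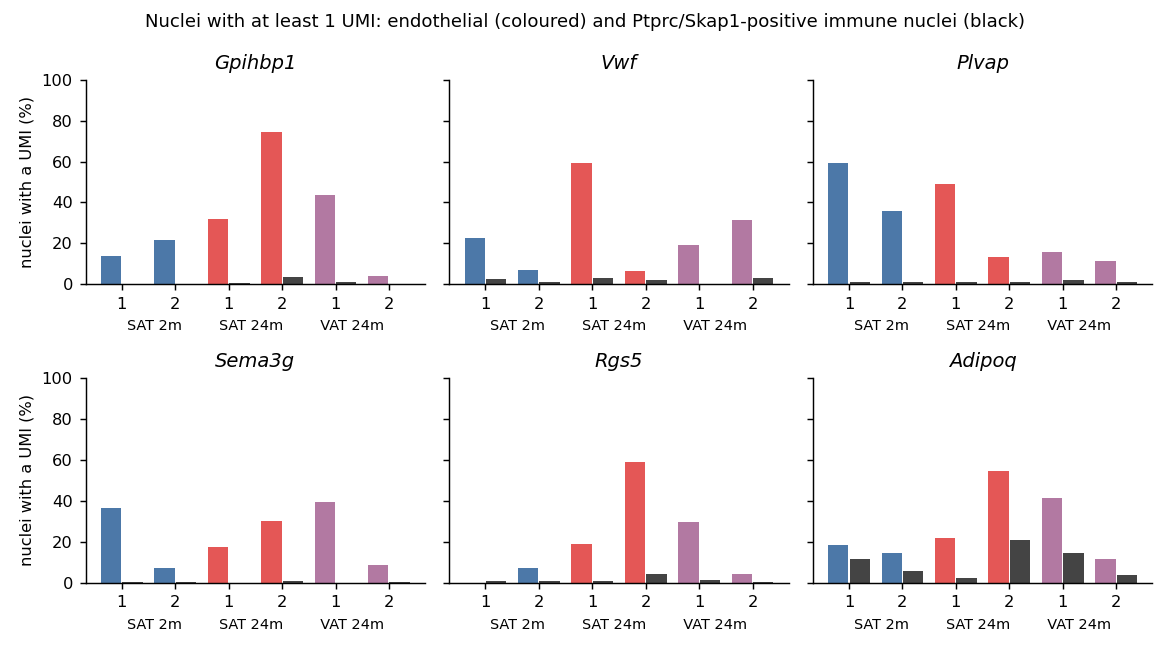
Share of nuclei with at least 1 UMI of 6 genes in the endothelial nuclei (coloured by group) and in immune nuclei (black), in percent, for replicates 1 and 2 of each group; depths are not equalised. Gpihbp1 peaks at 74.2% in replicate 2 of SAT at 24 months where Vwf is at 6.67%, and Adipoq is highest in both kinds of nuclei in that library and in VAT replicate 1.

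By gene list, the subtypes overlapped within nuclei, so no nucleus was given a subtype name. With nuclei thinned to 1000 UMIs and at least 2 UMIs of a list required, 103 of 599 carried the capillary and fatty acid handling list without the arterial or venous one, 264 the arterial but not the venous list, 56 the venous but not the arterial list, 158 both, and 18 none of the 3. Replicate 2 of SAT at 24 months held 175 of the 264 and 77 of the 103, while in replicate 1 the arterial list alone of these 2 was in 15 of 69 nuclei, the venous in 14 and both in 36. In VAT these counts were 47, 8 and 26 of 94 nuclei in replicate 1 and 18, 14 and 17 of 70 in replicate 2. The venous list was reached by 68.2% and 42.9% of the endothelial nuclei of SAT at 2 months, 72.5% and 23.6% of SAT at 24 months and 36.2% and 44.3% of VAT (3.66% to 5.96% of other nuclei). Without thinning these shares were 68.2%, 57.1%, 79.7%, 45.5%, 50% and 60%. The capillary list was reached by 77.3% and 78.6%, 87.0% and 99.7%, and 94.7% and 31.4%, but also by 22.0% to 93.2% of the other nuclei. It includes Fabp4, Cd36, Lpl and Pparg, which adipocytes also transcribe.

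Between SAT at 24 and at 2 months, the test on summed counts called 2 of 4678 genes (0.0428%), both lower at 24 months: Glycam1 and Fam3d (edgeR quasi-likelihood test, Benjamini-Hochberg adjusted p under 0.05). No gene was called higher, and DESeq2 called Fam3d and Ccl21a, both lower. At an unadjusted p under 0.05 there were 410 genes (8.76%), of which 269 were higher (5.75%) and 141 lower (3.01%), and the 2 groups did not overlap in 41.6% of the genes tested. The median log2 difference of all genes was 0.16 with TMM scaling and -0.13 with library size alone, so differences of this size have no fixed sign. The number called ran from 0 to 47 as 1 library at a time was left out. It was 0 without replicate 1 of SAT at 2 months, 1 without replicate 2 of SAT at 24 months, and 47 (39 higher and 8 lower) without replicate 1 of SAT at 24 months.

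Glycam1, the mucin that lymphocytes bind on high endothelial venules (chr15:103471186-103473515, GRCm39), had 819 and 44 UMIs in the endothelial nuclei of SAT at 2 months (21048 and 1849 CPM) and 0 in those of the other 4 libraries. Only 2 endothelial nuclei in each of the younger libraries held it, and 781 of the 819 UMIs were in 1 nucleus. Other nuclei held it too at 2 months, with 277 and 348 UMIs in 94 and 96 nuclei, and with 3 and 7 UMIs in SAT at 24 months. Against a floor of 3 UMIs over both older SAT libraries, it was at least 3238-fold lower at 24 months on the group mean and at least 523-fold lower than in the younger library with less of it (edgeR quasi-likelihood adjusted p = 0.0489). Fam3d, a secreted protein gene (chr14:14091019-14120837), had 22 and 11 UMIs at 2 months, again from 2 nuclei in each library, and 0 in SAT at 24 months, at least 145-fold lower (edgeR adjusted p = 0.0489). Of the other high endothelial venule genes, Chst4 had 1 and 3 UMIs and Fut7 7 and 0 at 2 months, and both had 0 in SAT at 24 months. Gcnt1 had 3 and 2 UMIs at 2 months, 5 and 2 in SAT at 24 months and 14 and 1 in VAT, while Madcam1 had none in any library. Leaving out the nuclei that held at least 2 UMIs of the 5 venule genes, Glycam1 among them, left both genes untested, so the loss of these calls follows from how the nuclei were chosen, and 0 other genes were called by edgeR (382 at an unadjusted p under 0.05). Glycam1 missed the threshold without replicate 1 of SAT at 2 months (edgeR adjusted p = 0.0770), and Fam3d without replicate 2 of SAT at 2 months (0.0745) or replicate 2 of SAT at 24 months (0.0706). Over all alternatives that tested them the adjusted p ran from 1.02e-22 to 0.432 for Glycam1, the highest with DESeq2, and from 1.81e-08 to 0.0779 for Fam3d.

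The genes next in line were not called by edgeR with the main settings. Ccl21a, a chemokine that draws naive lymphocytes and has near-identical copies that reads may not tell apart, was at 1593 and 168 CPM at 2 months and 7.18 and 2.82 at 24 months (log2 difference -7.46 ± 1.26 (SE), edgeR adjusted p = 0.116), with 62 of its 66 UMIs at 2 months in 1 nucleus. It was called by DESeq2 (adjusted p = 7.5e-05), and by edgeR with library size alone (adjusted p = 0.0306), with the replicate block (0.0115) and with no filter on low counts (1.15e-08). It also passed the threshold without replicate 2 of SAT at 2 months (edgeR adjusted p = 0.0261) and without replicate 1 of SAT at 24 months (2.01e-05), and over all alternatives its adjusted p ran from 1.15e-08 to 0.206. The B-cell gene Ighd, the IgD heavy chain, was at 617 and 252 CPM at 2 months and 0 and 21.2 at 24 months (edgeR adjusted p = 0.491). Bank1, an adaptor of the B-cell receptor, was at 437 and 252 CPM at 2 months and 28.7 and 38.1 at 24 months (edgeR adjusted p = 0.491). Both were lower in the other nuclei of the older libraries as well: Ighd was at 481 and 416 CPM there at 2 months and at 38.5 and 44.6 at 24 months. Ccl21a too had a UMI in fewer of the other nuclei, 3.98% and 6.21% at 2 months and 1.69% and 1.00% at 24 months. The remaining genes lower at 24 months by the smallest p were Ifi213, Dennd2d, Mir142hg, Cfap44 and Arhgap45, all with an adjusted p of 0.491. The 10 immune markers summed to 1105 and 1345 CPM in the endothelial nuclei at 2 months and to 316 and 408 at 24 months, and 10 of 10 had a UMI in some library. Their part in these differences was not tested.

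Among the genes higher at 24 months, Rgs5, a regulator of G-protein signalling best known from pericytes, was at 0 and 42 CPM at 2 months and 474 and 2077 at 24 months (log2 difference 6.51 ± 1.35 (SE), edgeR adjusted p = 0.491, not called). Without replicate 1 of SAT at 24 months it was called (9.6e-07 by edgeR), and without replicate 2 the log2 difference was 4.96 (edgeR adjusted p = 0.233). It had a UMI in 0 of 22 endothelial nuclei, which allows a share of nuclei with a UMI of up to 13.6% (a limit of 3 nuclei), and in 1 of 14 at 2 months, and in 13 of 69 and 195 of 330 at 24 months, against 0.951% and 4.44% of immune nuclei in the older libraries. In replicate 2 of SAT at 24 months, 77 of the 195 nuclei with Rgs5 also held Notch3, Pdgfrb, Abcc9, Kcnj8, Cspg4, Myh11 or Acta2, and so did 20 of the 135 without it. In replicate 1 it was 10 of 13 and 5 of 56, in nuclei that were not thinned. Counted with or without Rgs5, at least 1 of these 7 genes was in 4 of 22 and 3 of 14 nuclei at 2 months and in 15 of 69 and 97 of 330 at 24 months. The 10 smooth muscle and pericyte markers, Rgs5 included, summed to 154 and 336 CPM at 2 months and 868 and 2698 at 24 months in these nuclei, and to 2989 to 5992 CPM in the nuclei chosen as mural cells. The 9 markers other than Rgs5 summed to 154 and 294 CPM at 2 months and 395 and 620.5 at 24 months, and in the other nuclei to 379.8 and 323 CPM and to 326 and 409.7 CPM. Of them, Notch3 and Abcc9 were at 0 in both younger libraries. Whether the transcripts belonged to the endothelial nuclei was not tested.

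Hemoglobin genes were higher in the same libraries. Hbb-bs, a beta globin, was at 0 and 0 CPM at 2 months and 309 and 200.3 at 24 months, and at least 5.32-fold higher at 24 months against a floor of 3 UMIs over both younger libraries (edgeR adjusted p = 0.491, not called). In replicate 1 at 24 months 41 of its 43 UMIs were in 1 nucleus. Hba-a1, an alpha globin with a near-identical copy in Hba-a2, was at 0 and 0 CPM at 2 months and 165 and 196 at 24 months (edgeR adjusted p = 0.491, not called). The 4 red blood cell genes summed to 26 and 42 CPM in the endothelial nuclei at 2 months and 682 and 546 CPM at 24 months, and in the other nuclei to 11.5 and 5.72 CPM and to 36.5 and 246 CPM. The part of free red cell RNA was not tested.

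Of the other genes higher at 24 months by the smallest p, 6 are named here, and they were not called (edgeR adjusted p = 0.491 each). Rhob, an endosomal GTPase, was at 25.7 and 0 CPM at 2 months and 266 and 612 at 24 months, and Hspb1, a small heat shock protein, at 0 and 0 CPM at 2 months and 294 and 357 at 24 months. The others were Selenok, Retnla, Rps19 and Micos10. The groups did not overlap in any of these 9 genes (Rgs5 and the globins included), and 19.4% of all genes tested were higher without overlap. The 9 were picked for their small p in this same comparison, which favours such genes, so this is no result about them. Without replicate 1 of SAT at 24 months their log2 differences ran from 4.19 (Rps19) to 9.35 (Hspb1). The mitochondrial share of UMIs differed too, with a median of 1.48% and 1.22% in the endothelial nuclei at 2 months and 4.02% and 5.99% at 24 months (1.72% and 0.918%, and 3.45% and 2.72%, in the other nuclei), and its part was not tested.

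**Figure D4:**
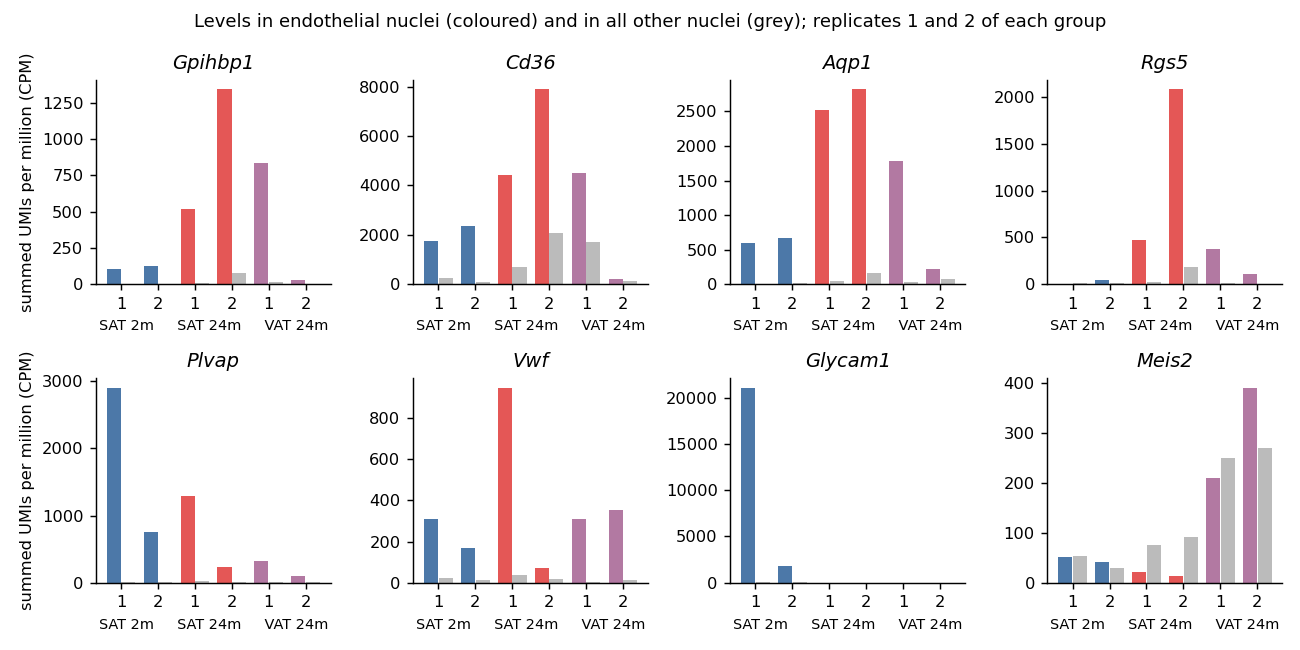
Level of 8 genes in the summed endothelial nuclei (coloured by group) and in all other nuclei (grey), in CPM, for replicates 1 and 2 of each group; each panel has its own axis from 0. Gpihbp1, Cd36, Aqp1 and Rgs5 are highest in replicate 2 of SAT at 24 months, Glycam1 is seen in the endothelial nuclei of SAT at 2 months only, and Meis2 is raised in both kinds of nuclei in VAT.

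Of the capillary and fatty acid handling list, 16 of 19 genes were tested and 0 were called in either direction. Gpihbp1 was at 103 and 126 CPM at 2 months and 517 and 1343 at 24 months (log2 difference 3.32 ± 1.24 (SE), edgeR adjusted p = 0.518). Cd36, the fatty acid translocase, was at 1748 and 2353 CPM at 2 months and 4407 and 7885 at 24 months, and Fabp4, a fatty acid binding protein, at 6296 and 8909 CPM at 2 months and 12488 and 29938 at 24 months. Both genes were in adipocytes too, and in the other nuclei Cd36 was at 255 and 114 CPM at 2 months and 722 and 2084 at 24 months. Aqp1, a water channel at a lower level in the other nuclei (11 to 161 CPM), was at 591 and 672 CPM at 2 months and 2519 and 2818 at 24 months (log2 difference 2.33 ± 0.85 (SE), adjusted p = 0.518). Lpl, the lipase itself, and Scd1, a desaturase, overlapped between the ages. Lpl was at 359.8 and 1177 CPM at 2 months and 323 and 3454 at 24 months. Scd1 was at 617 and 1177 CPM at 2 months and 423 and 9932 at 24 months. In each of these genes but Lpl and Scd1 both older libraries were above both younger ones. The median log2 difference of the 16 genes was 1.72, beside 0.16 over all genes, and 4 of the 16 had an unadjusted p under 0.05 (Aqp1, Gpihbp1, Scd1 and Timp4), all higher, as had 5.75% of all genes. Without replicate 2 of SAT at 24 months the median was 0.54 over 17 genes tested, and without replicate 1 it was 2.52, with 3 genes called where 0.712% of all genes were.

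The 6 caveolar genes were all tested and 0 were called. Cavin1, which coats caveolae, was at 539.7 and 210.1 CPM at 2 months and 1019 and 1842 at 24 months, Cav1, their core protein, at 745 and 294 CPM at 2 months and 775 and 1751 at 24 months, and Cavin2 at 1054 and 588 CPM at 2 months and 1026 and 1610.5 at 24 months, which overlapped. The median log2 difference of the 6 was 1.82, and 3 of 6 (Cav2, Cavin1 and Cavin3) had an unadjusted p under 0.05, beside 5.75% of all genes that were higher. The sum of the 6 genes was 2827 and 1345 CPM at 2 months and 3503 and 6645 at 24 months, and in the other nuclei it was 363 and 194 CPM and 681 and 2200.0 CPM. The median ran from 1.18 without replicate 2 of SAT at 24 months to 3.00 without replicate 1 of SAT at 2 months. In junctions, 12 of 14 genes were tested and 0 were called. Pecam1 and Cdh5 among them chose the nuclei, and the median of the other 10 was 0.63, 0.46 without replicate 2 and 1.41 without replicate 1 of SAT at 2 months. Without replicate 1 of SAT at 24 months 1 of the 10 was called, beside 0.712% of all genes. Cldn5, the tight junction protein of endothelium, was at 283 and 0 CPM at 2 months and 388 and 1100.0 at 24 months (adjusted p = 0.518 by edgeR), and Pecam1 and Cdh5 overlapped between the ages.

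No gene of larger vessels was called between the ages. Of the arterial list 14 of 18 genes were tested and of the venous list 10 of 11, with 0 called and medians of 0.45 and 0.22. The arterial median was 1.97 without replicate 1 of SAT at 2 months and -0.06 without replicate 2 of SAT at 2 months or replicate 1 of SAT at 24 months. The venous median was -1.18 without replicate 1 and 0.78 without replicate 2 of SAT at 24 months, so the sign of both medians turned with 1 library. Mecom, a transcription factor high in arterial endothelium, was at 1645 and 756 CPM at 2 months and 1227 and 536 at 24 months, and Cxcl12, an arterial chemokine, at 694 and 336 CPM at 2 months and 459 and 781 at 24 months. Plvap, which forms the diaphragms of fenestrae and caveolae, was at 2904 and 756 CPM at 2 months and 1299 and 233 at 24 months, a log2 difference of -1.14 ± 0.89 (SE) (edgeR adjusted p = 0.732), and Vwf at 308 and 168 CPM at 2 months and 947 and 70.5 at 24 months. The ages overlapped in all 4 genes, and Plvap and Vwf were both far higher in replicate 1 than in replicate 2 of SAT at 24 months.

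No signalling gene was called either. Of VEGF and angiopoietin genes 11 of 16 were tested and 0 called, of which Flt1, Kdr and Ptprb chose the nuclei, and the median of the other 8 was 0.49 (0.30 without replicate 1 of SAT at 24 months and 0.83 without replicate 1 of SAT at 2 months). The ligand Vegfa was at 359.8 and 462 CPM at 2 months and 64.6 and 76.2 at 24 months (edgeR adjusted p = 0.501). The receptor Flt1 was at 951 and 1009 CPM at 2 months and 897 and 887 at 24 months, Tek, the receptor of angiopoietins, at 308 and 294 CPM at 2 months and 653 and 275 at 24 months, and the co-receptor Nrp1 at 308 and 420.3 CPM at 2 months and 639 and 687 at 24 months. Of Notch genes 9 of 13 were tested (0 called, median 0.65, 2.49 without replicate 1 and -0.06 without replicate 2 of SAT at 2 months), with the ligand Jag1 at 488 and 126 CPM at 2 months and 301 and 138 at 24 months. The receptor Notch1 was at 206 and 168 CPM at 2 months and 100.5 and 206 at 24 months. Its relative Notch4 was at 437 and 42 CPM at 2 months and 151 and 176 at 24 months, and the ages overlapped in both. Of BMP and ALK1 genes 12 of 15 were tested (0 called, median 0.69, from 0.30 to 1.00 when 1 library was left out), and Id1, a target of the pathway, was at 308 and 168 CPM at 2 months and 559.8 and 347 at 24 months. The vessel tone and clotting list had 10 of 13 genes tested, 0 called and a median of 1.06 (0.63 to 2.00 when 1 library was left out). Klf2, a flow-responsive transcription factor, was at 488 and 420.3 CPM at 2 months and 904 and 491 at 24 months, and Nos3, the endothelial nitric oxide synthase, at 179.9 and 0 CPM at 2 months and 517 and 134 at 24 months. None of these ligands, receptors or targets passed the test, which for Flt1 was made on values that had chosen the nuclei.

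Matrix, adhesion and antigen presentation genes were described in the same way. Of basement membrane and integrin genes 15 of 18 were tested, with 0 called and a median of 0.96 (0.69 to 1.79 when 1 library was left out). Col4a1, a chain of type IV collagen, was at 385 and 252 CPM at 2 months and 589 and 1083 at 24 months (edgeR adjusted p = 0.518), and Sparc, a matrix-binding protein, at 771 and 883 CPM at 2 months and 854 and 2585 at 24 months. Hspg2, the proteoglycan perlecan, was at 463 and 336 CPM at 2 months and 639 and 781 at 24 months. Leukocyte adhesion and inflammation had 9 of 15 tested, 0 called and a median of 0.42 (0.32 to 1.05), and Nfkbia, the inhibitor of NF-kB, was at 385 and 210.1 CPM at 2 months and 603 and 419 at 24 months. Antigen presentation had 11 of 12 tested, 0 called and a median of -0.22 (0.18 without replicate 1 of SAT at 2 months, and 0.39 without replicate 1 and -0.92 without replicate 2 of SAT at 24 months), and the class I gene H2-K1 was at 4523 and 4791 CPM at 2 months and 2074 and 1845 at 24 months. B2m, the light chain of class I, was at 2262 and 2648 CPM at 2 months and 2261 and 3403 at 24 months, and Cd74, the class II invariant chain, at 539.7 and 294 CPM at 2 months and 122 and 650.1 at 24 months. Cd74 was higher in the other nuclei of each of these 4 libraries (352 to 853 CPM). Senescence and growth arrest had 7 of 13 tested, 0 called and a median of 0.01, which was 2.09 without replicate 1 of SAT at 2 months and -0.84 without replicate 2 of SAT at 24 months. Igfbp7, a secreted IGF-binding protein, was at 1645 and 630.4 CPM at 2 months and 955 and 1031 at 24 months. Cdkn1a, the p21 inhibitor of cyclin-dependent kinases, was at 77.1 and 42 CPM at 2 months and 28.7 and 193 at 24 months, and Cdkn2a, the p16 locus, had 0 and 0 UMIs at 2 months and 3 and 1 at 24 months. Of insulin and IGF genes 9 of 11 were tested, with 0 called and a median of 0.08 (0.04 to 0.70 when 1 library was left out), and the insulin receptor Insr was at 283 and 546 CPM at 2 months and 732 and 185 at 24 months. Igfbp4, an IGF-binding protein, was at 206 and 126 CPM at 2 months and 380.4 and 579.6 at 24 months, without overlap (edgeR adjusted p = 0.518). Of the 10 tip cell and proliferation genes 1 was tested and not called. Mki67, a marker of cycling cells, had 51.4 and 210.1 CPM in the younger SAT libraries, 28.7 and 11.3 in the older ones and 0 and 44.3 in VAT.

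**Figure D5:**
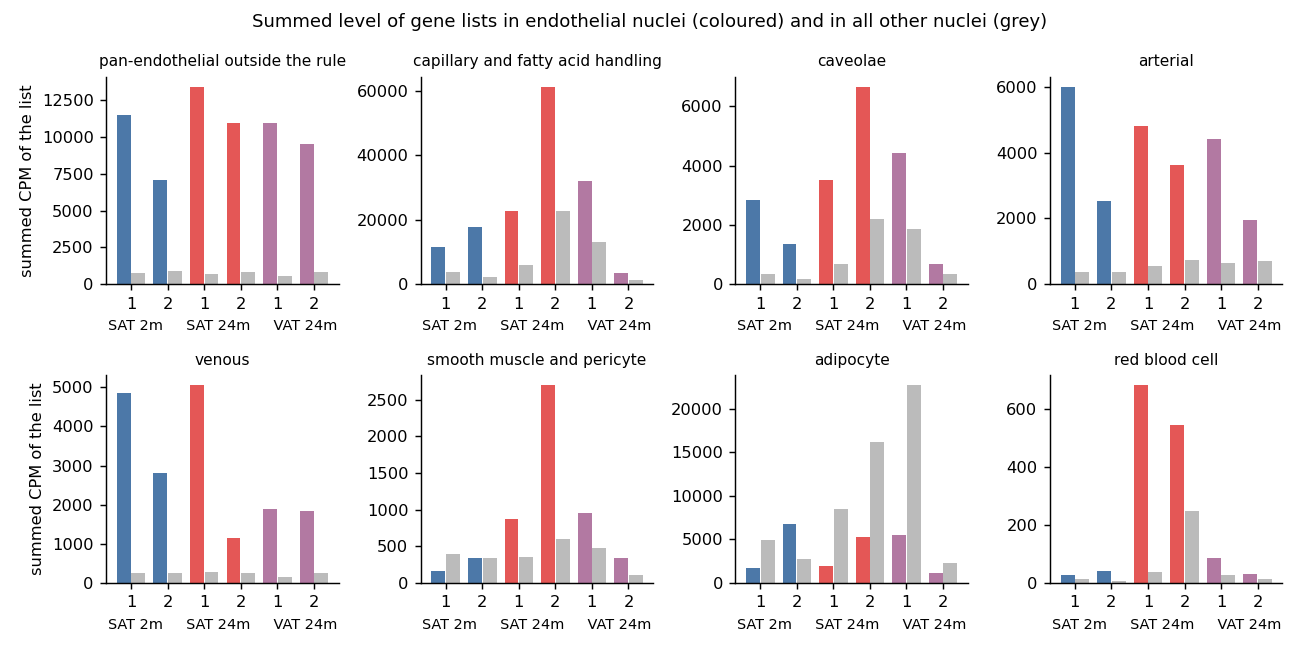
Summed level of 8 gene lists in the endothelial nuclei (coloured by group) and in all other nuclei (grey), in CPM, for replicates 1 and 2 of each group; each panel has its own axis from 0. The pan-endothelial list spans 7060 to 13378 CPM, the capillary list spans 3490 to 61096 CPM, and the venous list is lowest in replicate 2 of SAT at 24 months.

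Between VAT and SAT at 24 months, 0 of 4678 genes were called (0%) by edgeR's quasi-likelihood test, and 129 (2.76%) had an unadjusted p under 0.05, 80 higher (1.71%) and 49 lower (1.05%) in VAT. DESeq2 called 1 gene, Meis2. The smallest edgeR adjusted p was 0.360, also of Meis2, and the groups did not overlap in 29.1% of genes. The groups of Meis2 did not overlap. The count of calls was 24 without replicate 1 of SAT and 98 without replicate 1 of VAT.

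Meis2, a homeobox transcription factor (chr2:115693062-115896341, GRCm39), was at 21.5 and 12.7 CPM in SAT and 209.7 and 391 in VAT in the endothelial nuclei (log2 difference 4.15 ± 0.70 (SE), edgeR adjusted p = 0.36, DESeq2 adjusted p = 0.0170). In the other nuclei it was at 76.3 and 92.1 CPM in SAT and 249.7 and 269.6 in VAT, so both VAT libraries were above both SAT libraries in either kind of nuclei. Over all alternatives its adjusted p ran from 0.000193 without replicate 1 of VAT to 0.983 without replicate 2 of SAT. D5Ertd615e was at 50.2 and 28.2 CPM in SAT and 132 and 347 in VAT and at 12.7 and 6.03 CPM in SAT and 10.1 and 30.7 in VAT in the other nuclei (edgeR adjusted p = 0.998). Rora, a nuclear receptor of the clock, was at 222 and 172 CPM in SAT and 437 and 1262 in VAT and at 665 and 580.5 CPM in SAT and 1125 and 684 in VAT in the other nuclei.

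Some of the remaining genes higher in VAT rested on replicate 2, the library with ovary and oviduct transcripts. Tgfbi, a secreted matrix protein, was at 21.5 and 53.6 CPM in SAT and 47.9 and 1048 in VAT, and Robo2, a guidance receptor, at 14.4 and 8.46 CPM in SAT and 5.99 and 413 in VAT (log2 difference 4.19 ± 1.32 (SE), edgeR adjusted p = 0.998). Without VAT replicate 2 the log2 difference of Robo2 was -0.78 and that of Tgfbi 0.13 (3.61 with it), and without VAT replicate 1 both genes were called. In the other nuclei of replicate 2 Tgfbi was at 64.8 and Robo2 at 26.3 CPM. The 5 ovary and oviduct genes summed to 1926 CPM in the endothelial nuclei of that library, compared with at most 84.1 CPM in the endothelial nuclei of the other 5 libraries, and the mesothelial list summed to 553 CPM there. Their part in the depot comparison was not tested. Tspyl2, Nkain2, Ralgps2, Nckap5 and Stx1a completed the 10 genes.

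The genes lower in VAT by the smallest p were led by the globins. Hba-a1 was at 165 and 196 CPM in SAT and 0 and 7.38 in VAT (log2 difference -5.58 ± 1.03 (SE), edgeR adjusted p = 0.543), and Hbb-bs at 309 and 200.3 CPM in SAT and 47.9 and 22.1 in VAT (edgeR adjusted p = 0.998). Hba-a1 was called without replicate 1 of SAT (edgeR adjusted p = 0.0049) and without replicate 1 of VAT (0.0437). Cd59a, which protects cells from complement, was at 251 and 185 CPM in SAT and 59.9 and 44.3 in VAT, and Ubd, a ubiquitin-like modifier, at 50.2 and 98.7 CPM in SAT and 12 and 0 in VAT. Cdkn1a was at 28.7 and 193 CPM in SAT and 12 and 22.1 in VAT, with the value of replicate 2 of SAT standing above the other 3. Hba-a2, Ppp1r15b, Brk1, Lratd2 and Retnla made up the rest, and none was called.

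The VAT libraries lay far apart in capillary genes. Gpihbp1 was at 517 and 1343 CPM in SAT and 833 and 29.5 in VAT, Cd36 at 4407 and 7885 CPM in SAT and 4523 and 214 in VAT and Car4, a carbonic anhydrase of the capillary surface, at 115 and 422 CPM in SAT and 317 and 0 in VAT. VAT replicate 1 lay between the SAT libraries in all 3 genes, and VAT replicate 2 lay below every other older library. Other nuclei moved the same way, with Cd36 at 722 and 2084 CPM in SAT and 1696 and 127 in VAT, and in immune nuclei Cd36 had a UMI in 10.1% and 43.7% in SAT and 59.6% and 6.11% in VAT. The whole capillary list summed to 5867 and 22708 CPM in the other nuclei of SAT and 13168 and 1457 in those of VAT. The part of this background in the endothelial values was not tested. The median log2 difference of the 16 tested genes of the list was -1.26, beside -0.01 over all genes, with 0 called. It was -0.48 without VAT replicate 2 and turned to 0.42 without replicate 2 of SAT. Without VAT replicate 1 it was -3.41, with 9 genes of 18 called where 1.48% of all genes were. Caveolar genes had a median of -1.09, which was -0.31 without VAT replicate 2 and -0.57 without replicate 2 of SAT, with 0 called, and -3.25 without VAT replicate 1, with 3 of 6 called beside the same 1.48%. Aqp1 was at 2519 and 2818 CPM in SAT and 1779 and 229 in VAT, lower in both VAT libraries (edgeR adjusted p = 0.998). Insr was at 732 and 185 CPM in SAT and 323 and 1505 in VAT and Piezo2, a mechanically gated channel, at 122 and 26.8 CPM in SAT and 12 and 834 in VAT, in both cases highest in VAT replicate 2. Flt1, a VEGF receptor of the rule, spanned 657 to 897 CPM over these 4 libraries, and Rasip1, which acts in the forming of vessel lumens, spanned 388 to 531 CPM.

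Markers of other cells were present in the endothelial nuclei. The 12 adipocyte genes summed to 1696 and 6808 CPM in the younger SAT libraries, 1924 and 5253 in the older ones and 5481 and 1173 in VAT, against 2272 to 22725 CPM in the other nuclei, and 0 of 12 were called in either comparison. Their median log2 difference by age was -0.0009, but -0.61 without replicate 2 of SAT at 24 months and 1.85 without replicate 2 of SAT at 2 months. By depot it was -0.41, but -2.14 without VAT replicate 1 and 1.32 without replicate 2 of SAT. In replicate 2 of SAT at 2 months their sum was above that of its other nuclei (2777 CPM), and Ghr, the growth hormone receptor, made up 2522 CPM of it. The 10 genes of fibro-adipogenic progenitors summed to 1465 and 630.4 CPM in the younger SAT libraries, 279.9 and 1826 in the older ones and 1479.6 and 568 in VAT and the 8 epithelial genes to 154 and 252 CPM in the younger SAT libraries, 144 and 70.5 in the older ones and 119.8 and 354 in VAT. Their part in the comparisons was not tested.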

How the data were processed

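Nuclei of SAT and VAT were profiled by single-nucleus RNA-seq (Singleron GEXSCOPE). The authors deposited UMI counts, made with Celescope on GRCm39 (its version and annotation are not given in the sources used here) and not normalized. No columns of the authors' own comparisons were used. VAT at 2 months was not used here.

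Nuclei with at most 500 genes, at most 1000 UMIs or at least 15% mitochondrial UMIs were dropped, and members were chosen by the marker rule given above. The members and gene lists were chosen with earlier results of these data known. Scrublet's automatic call marked 36 nuclei and no member, too few to be relied on, so no doublet was removed, and leaving out the 6% highest scores was an alternative. Counts were summed per library and fitted over all 6 libraries with edgeR 4.0.16 (TMM, filterByExpr, quasi-likelihood test, Benjamini-Hochberg adjustment over all genes tested, threshold 0.05) in R 4.3.3, without a block. The study's text gives 2 mice per age, and the labels do not say which library is which mouse, so p-values measure the spread between these libraries. Shares were compared by an exact permutation test. CPM is a count per 1000000 UMIs of the summed nuclei. Thinning to 1000 UMIs used seed 1. Genes named were the 2 called and, by smallest p, the first 10 in each direction, besides the 4 highest of each list where they add to the account. Gpihbp1, Lpl, Car4, Timp4, Pparg, Vegfa, Tek, Cav2, Cavin3, Cdkn2a, Madcam1, Adipoq and the pericyte genes counted beside Rgs5 lie outside this rule or were taken for their known roles, after values had been seen. A gene that the rule would name is not reported here. DESeq2 1.42.0, Scanpy 1.11.5 and Python 3.11.15 served the alternatives and the reading of the matrices.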

Additional observations from a re-analysis of the deposited data

How the results depend on the processing

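The direction of both share differences held under every alternative run (2 against 2 libraries cannot reach the threshold), from 3.29 to 5.38 points for age and from -4.37 to -2.05 points for depot, and from 2.41 to 6.65 and from -5.26 to -1.02 when 1 library was left out. The number of genes called between ages (2) was 0 with DESeq2 size factors, with a marker minimum of 6 UMIs, without the 6% highest doublet scores and without the high endothelial venule nuclei (a choice that itself removes both genes), 1 with only the 4 libraries compared and, in an alternative chosen after seeing the data, 1 with a marker minimum of 3 UMIs, and 39 (29 higher, 10 lower) with no filter on low counts, which tested 20625 genes. It ran from 0 to 47 when 1 library was left out. Between depots (0 called), DESeq2 called 1 and no filter on low counts 27 (26 higher, 1 lower), and leaving out 1 library gave 0 to 98. Where 1 library was left out, the lone library of its group was assumed to vary like the other groups. The cause of these changes was not tested. With the replicate number as a block, 3 genes were called between ages, 2 of them shared, and 0 between depots. The deviations of same-numbered libraries correlated at 0.05, 0.00089 and -0.24. With 2 libraries a group these values cannot decide whether the numbers pair libraries, and the block served as an alternative only. Whether a number marks a mouse was not tested. Over the named genes, 471 values kept direction and side of the threshold, 39 passed it, 13 no longer did, and 1 reversed, Robo2 between depots without VAT replicate 2 (-0.78, against values up to 5.12 without another library). The depth of the younger SAT profiles, 14 and 22 nuclei, limits every comparison by age.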
